A study of Mus musculus with 60 samples.

Results

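33 genes of cholesterol handling, out of 54343 gene symbols measured, were followed through the liver and the inguinal white fat of diet-induced obese mice, fat being the pad under the skin of the groin. They were taken by symbol from a list of pathway members with no threshold on a measured value, though the list was drawn up with earlier results of these data known, and all 33 were found in each of 4 tables. Of the 33, 19 encode enzymes of cholesterol synthesis (9 for the steps to squalene and 10 for the steps after it), 4 regulate the pathway, 4 act in uptake and transport within the cell, 2 esterify cholesterol and 4 carry it out of the cell. The study set mGIPR-Ab/P1, a conjugate that joins an antibody against the receptor of the gut hormone GIP to a GLP-1 peptide, beside deletions of either hormone's receptor.

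Each table holds 15 libraries of 1 tissue and 1 mouse line, 5 a group, 60 libraries in all. In the Glp1r line the groups were floxed Glp1rfl/fl mice given mGIPR-Ab/P1 (called conjugate below), Glp1rWnt1-/- mice given vehicle (knockout) and Glp1rfl/fl mice given vehicle (vehicle). In the Gipr line they were Giprfl/fl mice given mGIPR-Ab/P1, GiprSyn-/- mice given vehicle and Giprfl/fl mice given vehicle. All mice were diet-induced obese, and both knockouts were treated with vehicle only, so no group combines the conjugate with a deletion. The deletions are named for Wnt1, a gene of the developing neural tube and neural crest, and Syn, as in the synapsins of neurons. The labels used here do not give age, sex, dose or time on diet. Replicates are labelled as biological, each with a number.

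Cells make cholesterol from acetyl-CoA in a chain of enzymes that first builds the isoprenoid squalene and then closes and trims it into the sterol. The transcription factor SREBP-2, encoded by Srebf2, is held in the endoplasmic reticulum by the INSIG proteins when sterols are plentiful and is escorted by SCAP to its activation when they are scarce, and it then raises the genes of synthesis and uptake. Liver is a main site of cholesterol synthesis and of its loss into bile, while fat stores much of the body's free cholesterol.

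Values are FPKM, fragments scaled for transcript length and library size, so levels can be set against each other between genes. Depth was estimated from the lowest values at 31.7 to 57.2 (in units of 1e6 fragments) for liver libraries and 29.9 to 64.4 for fat libraries. Hepatocyte markers were high in the livers (mean log2 level 12.3 to 13 over the libraries) and adipocyte markers in the fat (9.25 to 10.5), as the tissue labels say. Glp1r itself was at or near 0 in every library (at most 0.356 FPKM in liver and 0.0907 in fat), and Gipr likewise in liver, so these tissues cannot show either deletion there. In the fat of the Gipr line, Gipr averaged 4.0 ± 1.11 FPKM in knockout fat and 6.15 ± 1.12 FPKM in vehicle fat (SD, n = 5 each), with overlapping libraries. Markers of other cells were high in some libraries: 7 Gipr line livers had an exocrine pancreas score (mean log2 level of 6 pancreatic markers) above 5, and 6 fat libraries had a B cell score (5 markers) above 5. Skeletal muscle scores reached 5.14 in liver and 7.82 in fat libraries, both in the Gipr line. Vehicle fat replicate 1 of the Glp1r line had a hepatocyte score of 6.38. The part of these 2 scores in the results was not tested. In bulk tissue, fewer cells of a type and less RNA per cell cannot be told apart.

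Promoter sequences of RefSeq (mouse build GRCm38.p6), running 250 bases before to 50 after an annotated start, were at hand for 26 of the 33 members, in 33 promoters. Hmgcs1 is shown because it was among the members lower in the most comparisons, Insig1 and Insig2 because each fell in a different tissue, Cyp51 and Nsdhl as late enzymes that fell in the fat of both lines, and the stretch between Abcg5 and Abcg8 because these neighbours share it. Capitals mark 2 motifs searched on both strands: CCAAT, the box bound by the factor NF-Y, and CACNCCAC, the core of a sterol regulatory element bound by SREBPs. No CCAAT overlapped a CACNCCAC in the printed runs.
Hmgcs1, chr13:119690101-119690400, plus strand: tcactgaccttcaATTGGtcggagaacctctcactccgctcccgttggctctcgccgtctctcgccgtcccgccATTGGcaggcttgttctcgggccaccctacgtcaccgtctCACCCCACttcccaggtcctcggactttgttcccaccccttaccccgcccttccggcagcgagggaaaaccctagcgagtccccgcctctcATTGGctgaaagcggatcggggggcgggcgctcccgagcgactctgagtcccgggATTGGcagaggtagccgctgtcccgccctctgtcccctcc
Insig1, chr5:28071162-28071461, plus strand: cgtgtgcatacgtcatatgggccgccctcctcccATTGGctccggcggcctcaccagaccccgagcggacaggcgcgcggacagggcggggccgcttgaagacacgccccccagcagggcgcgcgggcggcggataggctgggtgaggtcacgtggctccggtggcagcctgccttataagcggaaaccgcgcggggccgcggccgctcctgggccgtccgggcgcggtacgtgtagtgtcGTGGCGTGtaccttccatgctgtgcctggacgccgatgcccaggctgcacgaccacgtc
Insig2 start 1, chr1:121332540-121332839, minus strand: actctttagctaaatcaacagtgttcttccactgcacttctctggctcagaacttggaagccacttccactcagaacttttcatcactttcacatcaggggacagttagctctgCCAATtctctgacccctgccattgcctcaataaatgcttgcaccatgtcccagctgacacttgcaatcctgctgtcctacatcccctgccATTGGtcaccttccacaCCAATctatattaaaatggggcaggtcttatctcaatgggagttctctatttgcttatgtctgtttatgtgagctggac
Insig2 start 2, chr1:121327975-121328274, minus strand: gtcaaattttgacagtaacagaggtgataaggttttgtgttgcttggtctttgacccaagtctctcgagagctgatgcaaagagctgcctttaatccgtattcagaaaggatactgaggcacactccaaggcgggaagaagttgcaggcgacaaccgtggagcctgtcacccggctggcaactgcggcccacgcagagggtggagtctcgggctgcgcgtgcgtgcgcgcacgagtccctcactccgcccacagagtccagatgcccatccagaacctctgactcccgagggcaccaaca
Insig2 start 3, chr1:121327629-121327928, minus strand: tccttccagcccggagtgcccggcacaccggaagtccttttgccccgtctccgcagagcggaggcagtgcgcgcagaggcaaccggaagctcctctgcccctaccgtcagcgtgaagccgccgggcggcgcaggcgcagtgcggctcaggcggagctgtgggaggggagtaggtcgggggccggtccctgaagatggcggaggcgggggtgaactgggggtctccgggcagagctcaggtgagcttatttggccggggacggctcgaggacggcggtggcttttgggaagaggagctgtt
Cyp51, chr5:4104648-4104947, minus strand: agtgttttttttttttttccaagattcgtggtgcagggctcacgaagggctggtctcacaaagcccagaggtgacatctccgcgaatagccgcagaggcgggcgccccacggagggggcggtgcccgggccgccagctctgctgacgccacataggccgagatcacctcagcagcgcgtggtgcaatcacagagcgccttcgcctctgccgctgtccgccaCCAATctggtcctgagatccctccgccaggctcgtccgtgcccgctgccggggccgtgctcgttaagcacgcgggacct
Nsdhl, chrX:72918271-72918570, plus strand: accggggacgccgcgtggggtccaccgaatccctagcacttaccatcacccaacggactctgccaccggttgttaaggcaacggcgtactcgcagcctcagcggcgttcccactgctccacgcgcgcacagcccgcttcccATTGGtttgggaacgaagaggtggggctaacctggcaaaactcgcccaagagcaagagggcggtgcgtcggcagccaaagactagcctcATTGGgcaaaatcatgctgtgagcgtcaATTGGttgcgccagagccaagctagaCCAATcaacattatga
Abcg5 and Abcg8, shared stretch, chr17:84682962-84683170, plus strand: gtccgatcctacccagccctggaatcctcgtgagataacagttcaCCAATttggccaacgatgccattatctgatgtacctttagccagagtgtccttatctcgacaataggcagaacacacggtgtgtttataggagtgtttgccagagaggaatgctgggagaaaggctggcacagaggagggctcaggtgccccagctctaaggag

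A CCAAT lay in the promoters of 15 of the 16 synthesis enzymes that have one at hand, or 78.9% of their 19 promoters, and in 37.4% of all 32851 promoters. Acat2, which makes acetoacetyl-CoA, was the enzyme without it. The CACNCCAC core was found in 3 of the members' 33 promoters (9.09%), those of Acat2, Hmgcs1 and Insig1, and in 6.24% of all promoters. In Hmgcs1 the core begins at position -136 from the start and stands among 4 CCAAT boxes read on the other strand, and in Insig1 it begins at -9. Of the 3 Insig2 starts, the first holds 3 CCAAT boxes and the others hold neither motif. Abcg5 and Abcg8 are read away from each other from starts 110 bases apart, with 1 CCAAT in the shared stretch.

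The 2 tissues hold different sets of the later genes. The tables were normalized separately, so levels across them are set side by side with no test. In vehicle mice of the Glp1r line, Insig1 averaged 100.4 ± 16.8 FPKM in liver and 177 ± 56.7 FPKM in fat, while Insig2 averaged 109 ± 19.3 FPKM in liver and 23 ± 3.3 FPKM in fat (SD, n = 5 each). Insig2 thus stood near Insig1 in these livers and well under it in fat, while in vehicle livers of the Gipr line Insig1 averaged 106 ± 33.5 FPKM and Insig2 68.6 ± 7.2 FPKM. Soat2, the esterifying enzyme of liver and gut, had 15.9 to 19.2 FPKM in these livers and at most 0.271 FPKM in the fat, and Soat1, its partner of most other tissues, had 0.449 to 0.888 FPKM in the livers and 2.14 to 9.29 FPKM in the fat. Abcg5 and Abcg8, which as a pair pump sterols into bile, averaged 36.3 ± 1.3 and 32.5 ± 1.83 FPKM in the livers and were at or near 0 in fat. Abcg1, which hands cholesterol to HDL, ran the other way, with 1.06 ± 0.328 FPKM in the livers and 16 ± 5.99 FPKM in the fat. Npc2, the lysosomal protein that passes cholesterol to Npc1, was the most abundant transport gene of fat, at 259.7 ± 63.1 FPKM.

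**Figure D1:**
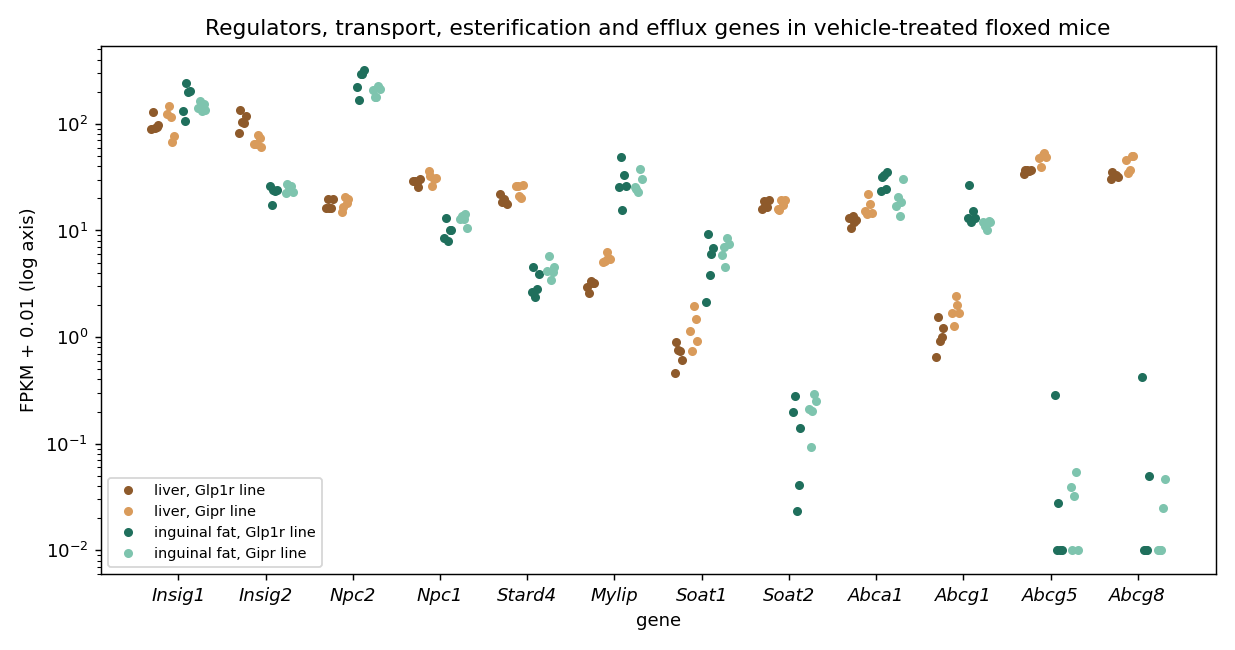
FPKM (log axis, 0.01 added) of 12 regulator, transport, esterification and efflux genes in each vehicle library of the 4 tables, 5 points a table. Abcg5, Abcg8 and Soat2 lie above 10 FPKM in all liver libraries and under 1 FPKM in all fat libraries.

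In Glp1r line livers, 13 of the 19 synthesis enzymes were lower in the conjugate group, in a comparison where sequencing depth also differed without overlap and with depth as a covariate no gene was called. A member was tested where its table has at least 5 libraries of 1 FPKM or more, which 31 of 33 passed (Soat1 and Abcg1 did not), and called at an adjusted p under 0.05 in limma over all genes tested. 15 members were lower and 0 higher in conjugate livers against vehicle livers, where 4.69% of all genes tested were lower. The 15 comprise the 13 enzymes, 5 before squalene and 8 after it, and the regulators Srebf2 and Insig2. The median log2 difference was -0.59 over the members tested and 0.01 over all genes. For 14 members every conjugate library lay below every vehicle library, as it did for 4.02% of all genes.

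Sqle, squalene epoxidase, had 1.09, 6.23, 1.22, 1.38 and 7.64 FPKM in conjugate livers, 2.78, 19.4, 3.71, 7.01 and 13.5 FPKM in knockout livers and 25.6, 19.2, 8.83, 17.6 and 12.7 FPKM in vehicle livers. It moved most of the module, at a log2 difference of -2.18 ± 0.50 SE, adjusted p = 0.0161 for conjugate against vehicle, and these 2 groups did not overlap. 3 of the 5 conjugate libraries were near 1 FPKM, where the added 1 FPKM of the log scale damps a change. Mvd, which makes isopentenyl diphosphate, had 1.43, 5.76, 2.17, 2.41 and 4.99 FPKM in conjugate livers, 2.68, 8.82, 3.88, 5.14 and 7.65 FPKM in knockout livers and 10.1, 15.3, 8.38, 10.3 and 8.42 FPKM in vehicle livers. All 5 conjugate libraries were again the lower ones, and the log2 difference was -1.48 ± 0.30 SE, adjusted p = 0.00976.

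Hmgcs1, the synthase that opens the mevalonate route, had 16.9, 67, 33.8, 24.9 and 45.6 FPKM in conjugate livers, 38.2, 87.1, 41.9, 43 and 61.4 FPKM in knockout livers and 113, 114, 70.04, 85.4 and 85.4 FPKM in vehicle livers. Conjugate replicate 2 came closest to the vehicle range without reaching it, and the log2 difference was -1.42 ± 0.31 SE, adjusted p = 0.0128. Msmo1, a sterol demethylase, had 14.3, 36.5, 21.2, 20.4 and 40.3 FPKM in conjugate livers, 26.4, 74.2, 30.4, 34.7 and 48.3 FPKM in knockout livers and 89.6, 70.8, 47.7, 63 and 53.2 FPKM in vehicle livers, with no overlap of conjugate and vehicle and a log2 difference of -1.32 ± 0.30 SE, adjusted p = 0.0146. The other enzymes that fell were Fdps (-1.30), Cyp51 (-1.13), Nsdhl (-1.13), Dhcr7 (-1.13), Hsd17b7 (-0.81), Acat2 (-0.77), Sc5d (-0.67), Lss (-0.64) and Mvk (-0.57). 6 enzymes missed the threshold: Idi1 at -1.19 ± 0.39 SE, adjusted p = 0.0653, Pmvk at -0.78 ± 0.24 SE, adjusted p = 0.0529, Fdft1, Tm7sf2, and Ggps1 and Ebp, which lay within 0.1 of 0.

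Of the regulators, Insig2 had 28.3, 110.4, 45.8, 43.5 and 51.7 FPKM in conjugate livers, 121, 78.3, 116, 89.3 and 76.2 FPKM in knockout livers and 82.6, 135, 105, 103 and 118 FPKM in vehicle livers. Conjugate replicate 2, at 110.4 FPKM, lay inside the vehicle range and the other 4 below it, and the log2 difference was -1.08 ± 0.26 SE, adjusted p = 0.0211. Srebf2 had 6.29, 8.84, 6.7, 6.31 and 8.47 FPKM in conjugate livers, 6.94, 8.59, 6.96, 7.79 and 7.84 FPKM in knockout livers and 9.95, 11.2, 8.66, 9.16 and 9.08 FPKM in vehicle livers, a small shift in which the highest conjugate library only just entered the vehicle range, with a log2 difference of -0.36 ± 0.09 SE, adjusted p = 0.0289. Insig1 stood at -0.59 ± 0.19 SE, adjusted p = 0.0576, and Scap was level in the 3 groups, at 19.7, 19.4 and 19.9 FPKM in conjugate, knockout and vehicle livers. None of the 8 transport, esterification and efflux genes tested was called against vehicle. Abcg5 and Abcg8 had log2 differences of 0.31 ± 0.12 SE, adjusted p = 0.098, and 0.31 ± 0.11 SE, adjusted p = 0.0746.

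No member was called in Glp1rWnt1-/- livers against vehicle livers, nor was any other gene (0% of genes lower). Without adjustment, 16 members had p under 0.05 and 1048 of all 10858 genes did. The members' median log2 difference was -0.41 and that of all genes -0.04, with 30 of the 31 members negative. Groups did not overlap for 2 members, Srebf2 and Soat2, and for 1.72% of all genes in this direction. Soat2, the gene with the smallest p among the transport, esterification and efflux genes, had 17.4, 21, 21.6, 15.8 and 18.4 FPKM in conjugate livers, 12.7, 14.5, 15.7, 12 and 15.2 FPKM in knockout livers and 15.9, 18.7, 17.1, 16.5 and 19.2 FPKM in vehicle livers, all knockout libraries being the lowest, at -0.30 ± 0.09 SE, adjusted p = 0.272. Within this group knockout replicate 2 was the highest of its group for 18 of 19 enzymes and knockout replicate 1 the lowest for 13. In Sqle that spread ran from 2.78 to 19.4 FPKM.

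Set against knockout livers directly, conjugate livers had higher Soat2 (0.40 ± 0.09 SE, adjusted p = 0.0244), Abcg5 (0.45 ± 0.12 SE, adjusted p = 0.0413) and Abcg8 (0.42 ± 0.11 SE, adjusted p = 0.0374). All 3 act on cholesterol after it is made, and 4.14% of genes were higher in this contrast. Estimated depth also differed without overlap between these 2 groups, so depth and group cannot be told apart in these calls. Abcg5 averaged 46.3 ± 11, 33.1 ± 3.49 and 36.3 ± 1.3 FPKM in conjugate, knockout and vehicle livers (SD, n = 5 each). 18 of the 19 enzymes had a negative difference and none was called. The 3 calls depend on the settings and on single libraries: 0 were left without a filter, with depth as a covariate, with only these 2 groups, or without conjugate replicate 3, knockout replicate 2 or knockout replicate 4. 1 was left with median-of-ratios scaling or without conjugate replicate 1 or knockout replicate 3, and 5 were called without conjugate replicate 2.

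Estimated depth was 34 ± 1.58 (in units of 1e6 fragments) in these conjugate livers and 49.9 ± 2.95 in vehicle livers (SD, n = 5 each). These groups did not overlap, so depth and treatment cannot be told apart here. Knockout livers, at 44.2 to 52.6, did not overlap conjugate livers either, at 31.7 to 35.5. The same limit therefore holds for conjugate against knockout livers. Cell type markers also moved: 2 of 4 erythrocyte markers tested and both tested genes of the epithelial list, Krt8 and Krt18, were lower in conjugate livers, and 2 of 5 hepatocyte markers higher, while 3 of 4 erythrocyte markers were lower in conjugate than in knockout livers. Krt5 of the epithelial list was at 0 FPKM in these livers, and which cells carried Krt8 and Krt18 cannot be told in bulk tissue. Erythrocyte scores were 4.83 to 5.41 in conjugate and 5.49 to 6.05 in vehicle livers, and the part of these markers in the results was not tested. With depth as a covariate 0 members and 0% of all genes were called, Sqle standing at -2.68, adjusted p = 0.536 and Hmgcs1 at -1.48, adjusted p = 0.574; 9 were called with no filter on low values, without conjugate replicate 1 or without vehicle replicate 2.

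**Figure D2:**
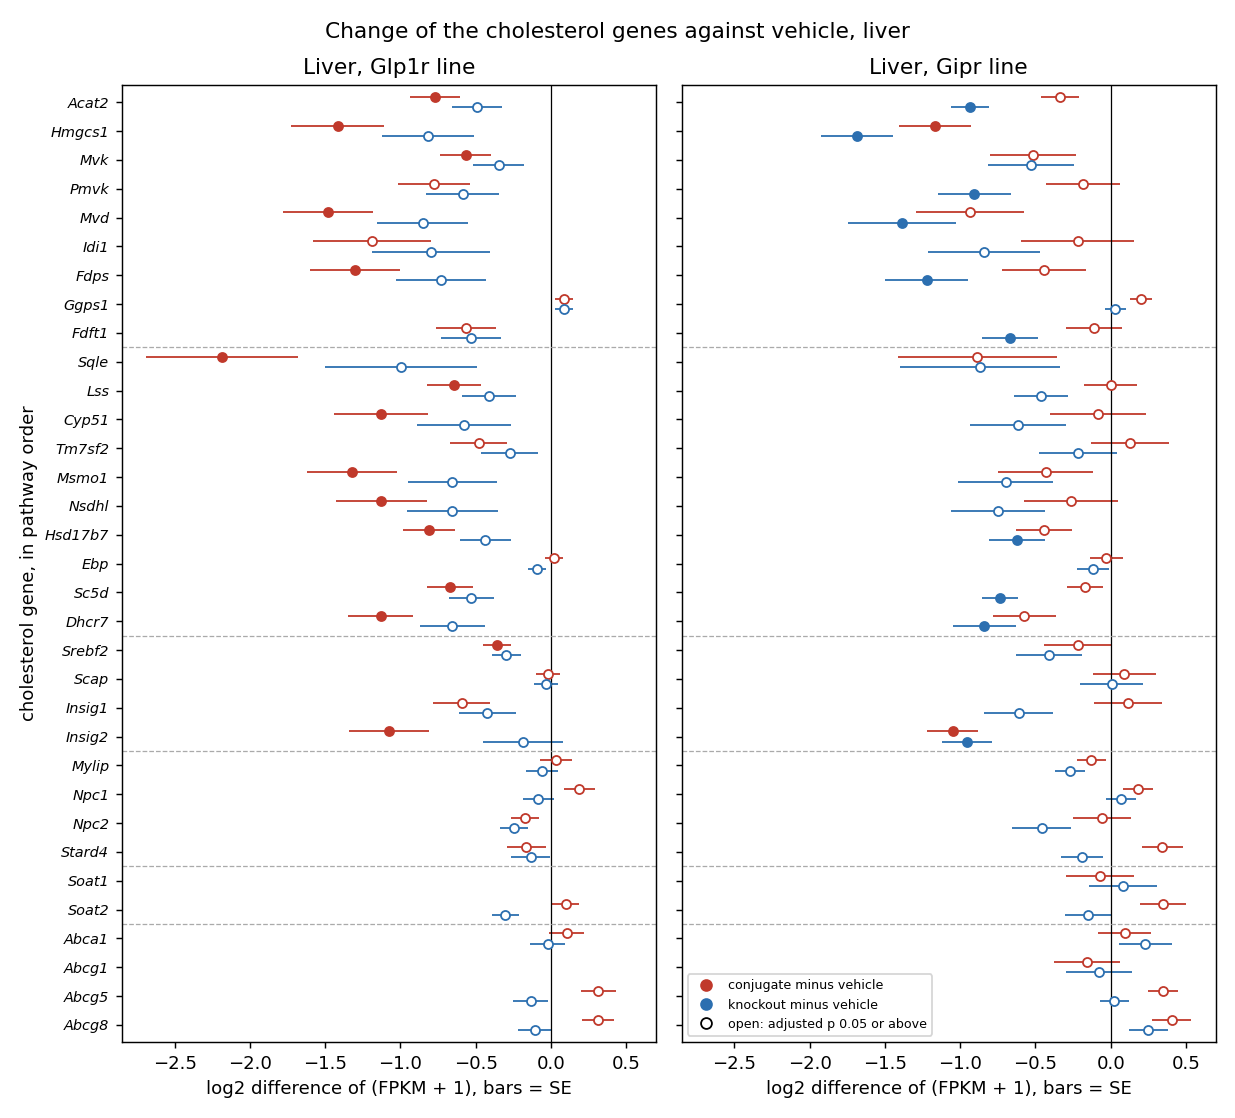
Log2 difference of FPKM + 1 against vehicle (x axis, bars are SE) for the members in pathway order (y axis) in liver, conjugate and knockout of each line, filled where the adjusted p is under 0.05. Most synthesis enzymes lie left of 0 in all 4 comparisons, with 13 filled for the Glp1r line conjugate group and 9 for the GiprSyn-/- group.

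In Gipr line livers the knockout group, not the conjugate group, had the larger count of lower enzymes. All 33 members were tested. In GiprSyn-/- livers 10 were lower than in vehicle livers and 0 higher, where 8.92% of all genes were lower. 9 of the 10 are enzymes, 6 before squalene (Acat2, Hmgcs1, Pmvk, Mvd, Fdps, Fdft1) and 3 late ones (Hsd17b7, Sc5d, Dhcr7), and the tenth is Insig2. The members' median log2 difference was -0.53 and that of all genes -0.11. For 7 members the groups did not overlap, against 10.6% of all genes in this direction.

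In conjugate livers of this line 2 members were lower than in vehicle livers, Hmgcs1 and Insig2, and 0 higher, where 3.17% of genes were lower. Their median log2 difference was -0.13, near that of all genes, -0.03. The groups did not overlap downward for Hmgcs1, Insig2 and Dhcr7, and for 3.57% of all genes. Thus the 2 members that fell in these conjugate livers were among the 15 of the Glp1r line, while 13 of those 15 were not called here.

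Hmgcs1 had 36.8, 44.7, 20.7, 52.8 and 37 FPKM in conjugate livers, 22.8, 22.6, 37.6, 19.2 and 27.8 FPKM in knockout livers and 64.7, 126, 84, 68.3 and 88.2 FPKM in vehicle livers. Conjugate and knockout livers all lay below vehicle, at log2 differences of -1.17 ± 0.24 SE, adjusted p = 0.0159, for the conjugate, and -1.69 ± 0.24 SE, adjusted p = 0.000456, for the knockout. Insig2 had 46.5, 29.8, 29.3, 26.2 and 34 FPKM in conjugate livers, 46.4, 41, 35.8, 29.8 and 25 FPKM in knockout livers and 64.8, 65.3, 78.2, 74 and 60.9 FPKM in vehicle livers. It was likewise below vehicle in every library of both groups, at -1.05 ± 0.17 SE, adjusted p = 0.00397, and -0.95 ± 0.17 SE, adjusted p = 0.00207.

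For Mvd the values were 1.06, 4.46, 1.79, 7.03 and 5.31 FPKM in conjugate livers, 1.77, 1.67, 2.53, 1.68 and 3.74 FPKM in knockout livers and 5.79, 14.8, 6.19, 4.53 and 8.45 FPKM in vehicle livers. Only the knockout group lay wholly below vehicle, at -1.38 ± 0.36 SE, adjusted p = 0.0217, while the conjugate libraries spread over 1.06 to 7.03 FPKM and stood at -0.93 ± 0.36 SE, adjusted p = 0.151. Fdps, which joins isoprene units into farnesyl diphosphate, had 72.1, 119.6, 54.8, 137 and 119 FPKM in conjugate livers, 33.6, 48.7, 81.5, 44.9 and 83.2 FPKM in knockout livers and 122, 171, 136, 114 and 112 FPKM in vehicle livers, a difference of -1.22 ± 0.28 SE, adjusted p = 0.0111 for the knockout and -0.44 ± 0.28 SE, adjusted p = 0.41 for the conjugate. Acat2 had 33.4, 34.7, 28.1, 38.7 and 39.7 FPKM in conjugate livers, 17.9, 21, 27.5, 21.7 and 26.2 FPKM in knockout livers and 39, 48.8, 47.9, 48.8 and 37.5 FPKM in vehicle livers. Every knockout library lay below the others, at -0.93 ± 0.13 SE, adjusted p = 0.000362, against vehicle, while conjugate and vehicle overlapped, at -0.34 ± 0.13 SE, adjusted p = 0.145.

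Acat2 (0.60 ± 0.13 SE, adjusted p = 0.0341) and Sc5d (0.56 ± 0.12 SE, adjusted p = 0.0336), a late sterol desaturase, were higher in conjugate than in knockout livers, with no overlap; 1.08% of genes were higher in this contrast. 18 of 19 enzymes leaned the same way. None of these calls was left with no filter, with median-of-ratios scaling, or without conjugate replicate 2 or 4 or knockout replicate 1, 2 or 4. 1 was left with depth as a covariate, with only the 2 groups, without the libraries of a higher number series, or without conjugate replicate 5 or knockout replicate 3. In these livers that series holds conjugate replicates 4 and 5 and vehicle replicate 5, numbered 20386 to 20388, and no knockout library. With array weights 12 members were called higher, as were 7.87% of all genes, and 6 without conjugate replicate 1.

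Transport, esterification and efflux genes were not called in either comparison with vehicle. The one with the smallest p was Abcg5, with 63.9, 64.2, 64.9, 54.4 and 59.4 FPKM in conjugate livers, 48.8, 43.4, 43.3, 54.7 and 55 FPKM in knockout livers and 48.1, 39.4, 51.6, 53.5 and 48.4 FPKM in vehicle livers. All 5 conjugate libraries lay above the vehicle libraries, at a log2 difference of 0.35 ± 0.10 SE, adjusted p = 0.0599. Its partner Abcg8 stood at 0.40 ± 0.13 SE, adjusted p = 0.0907, and Stard4, a carrier of cholesterol between membranes, at 0.34 ± 0.14 SE, adjusted p = 0.175. Npc1 and Abca1, the exporter that starts HDL, were near their vehicle levels in both groups, at 35.4, 32.6 and 31.1 FPKM and 18.4, 19.7 and 16.8 FPKM in conjugate, knockout and vehicle livers.

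The exocrine pancreas score ranged over 0.971 to 9.92 in conjugate, 1.04 to 8.53 in knockout and 0.779 to 9.0 in vehicle livers of this line. In knockout livers 2 of 3 adipocyte markers tested were lower, with scores of 1.28 to 1.51 in knockout and 1.86 to 2.1 in vehicle livers, and in conjugate livers 2 of 4 erythrocyte markers were lower, with scores of 4.55 to 5.68 in conjugate and 5.65 to 6.09 in vehicle livers. Krt8 was lower and 1 of 5 hepatocyte markers higher in both groups, and the part of these markers was not tested. With the pancreas score as a covariate the knockout count was 6, with Hmgcs1 at -1.58, adjusted p = 0.00113 and Mvd at -1.12, adjusted p = 0.0501; the knockout count was also 6 with no filter or without knockout replicate 2 or vehicle replicate 2, 5 without knockout replicate 1 or 4, and 17 with array weights, where 26.6% of all genes were lower. In conjugate livers 4 were called without conjugate replicate 1, 2 of them higher, and 5 with array weights, 3 of them higher, where 3.94% of all genes were higher and 7.96% lower.

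**Figure D3:**
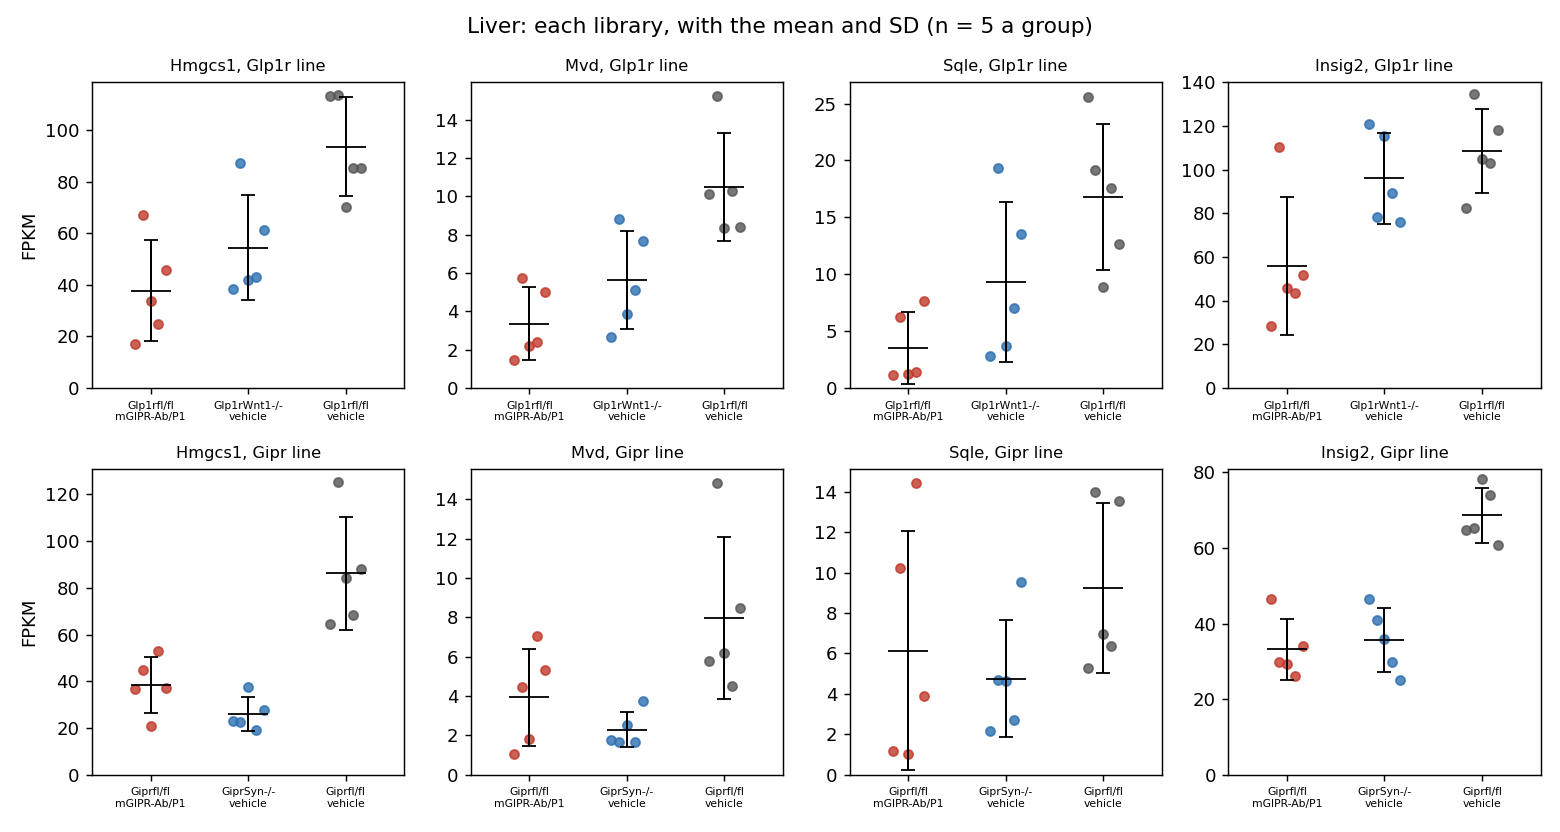
FPKM (y axis, from 0) of Hmgcs1, Mvd, Sqle and Insig2 in each liver library of the Glp1r line (top) and Gipr line (bottom), conjugate left of knockout and vehicle, with the mean and SD (n = 5 a group). Hmgcs1 lies below every vehicle library in the conjugate groups of both lines and in the GiprSyn-/- group.

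The conjugate effect in liver was also compared between the lines in 1 fit of 30 libraries. No member was called and 0% of 11549 genes were, with 5 members and 660 genes at an unadjusted p under 0.05. 18 of 19 enzymes had the more negative difference in the Glp1r line, with a median of -0.56, the median of all genes being 0.04. A difference between 15 and 2 called members is therefore not shown by this test. For Sqle the difference of differences was -1.30 (95% interval -2.87 to 0.28), and for Insig2 it was -0.03 (-0.70 to 0.65).

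In inguinal fat of the Glp1r line the conjugate group had lower synthesis enzymes and no called change in any other class. 30 members were tested, since Soat2, Abcg5 and Abcg8 are near 0 in fat. 10 were lower and 0 higher in conjugate fat against vehicle fat, where 1.08% of genes were lower: Pmvk, Mvd, Idi1 and Fdps before squalene, and Sqle, Lss, Cyp51, Nsdhl, Hsd17b7 and Dhcr7 after it. The members' median log2 difference was -0.33 and that of all genes 0.05. Groups did not overlap for 6 members in this direction and for 1.31% of genes.

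Lss, which closes the sterol rings, had 6.46, 10.2, 6.03, 6.88 and 7.46 FPKM in conjugate fat, 9.45, 12, 11.2, 11.3 and 14.2 FPKM in knockout fat and 14.7, 11.2, 20.2, 17.6 and 19.2 FPKM in vehicle fat. All conjugate libraries were below all vehicle libraries, the knockout libraries lying between them and touching both, with a log2 difference of -1.06 ± 0.16 SE, adjusted p = 0.00602. Cyp51, the lanosterol demethylase, had 5.6, 8.65, 6.21, 6.7 and 6.75 FPKM in conjugate fat, 9.64, 11, 9.69, 10.02 and 13.9 FPKM in knockout fat and 12.3, 11.4, 18.6, 16 and 15.1 FPKM in vehicle fat, and conjugate was below vehicle and below knockout in every library (-1.001 ± 0.14 SE, adjusted p = 0.00403). Mvd had 5.22, 5.8, 4.08, 4.69 and 5.7 FPKM in conjugate fat, 8.0, 7.84, 7.58, 7.95 and 9.93 FPKM in knockout fat and 8.77, 10.4, 11.5, 9.45 and 12.8 FPKM in vehicle fat. Its conjugate libraries were also below all others, at -0.92 ± 0.11 SE, adjusted p = 0.00265.

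Nsdhl, which removes the sterol's C4 methyl groups, had 21.2, 28.6, 16.5, 20.6 and 20.2 FPKM in conjugate fat, 26.8, 39.3, 31.1, 35.9 and 47.7 FPKM in knockout fat and 40.1, 25.6, 55, 47 and 47.1 FPKM in vehicle fat. Vehicle replicate 2, at 25.6 FPKM, fell inside the conjugate range and the other 4 vehicle libraries above it, with a log2 difference of -0.95 ± 0.20 SE, adjusted p = 0.0232. Insig1 followed the same order without a call: it had 81.5, 112, 91.5, 83.7 and 91.6 FPKM in conjugate fat, 85.2, 181, 113, 159.8 and 234 FPKM in knockout fat and 132, 107, 244, 200.03 and 205 FPKM in vehicle fat, at -0.88 ± 0.26 SE, adjusted p = 0.0805. Vehicle replicate 2 is again the low one, and the knockout group overlaps both others. Srebf2 averaged 10.4 ± 1.27, 11.9 ± 4.37 and 11.1 ± 8.14 FPKM in conjugate, knockout and vehicle fat, its vehicle mean being carried by replicate 2 at 25.6 FPKM.

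Vehicle replicate 2 was the lowest vehicle library for 17 of 19 enzymes and had the highest B cell score of the fat libraries, 6.62, the others of its group lying at 0.428 to 0.642. Knockout replicates 1 and 3 had scores of 5.87 and 5.8 and the highest knockout Srebf2, 17 and 16.5 FPKM. Without these 3 libraries, 16 members were lower and 1 higher in conjugate fat, where 5.93% of all genes were lower and 15.1% higher: Insig1 stood at -1.05, adjusted p = 0.00517, and Srebf2 was the higher one, at 0.42, adjusted p = 0.00825.

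Of the transport and efflux genes of this fat, Abca1 had the smallest p, with 19.7, 28.9, 18, 20.8 and 32.6 FPKM in conjugate fat, 25.7, 18.4, 24.7, 17.2 and 19.8 FPKM in knockout fat and 23.3, 31.9, 33, 24.7 and 35.2 FPKM in vehicle fat. The 3 groups overlapped, and the difference of knockout against vehicle was -0.47 ± 0.17 SE, adjusted p = 0.983. Soat1, Npc1 and Abcg1 were each set apart in 1 library: conjugate replicate 5 had 32.9 FPKM of Soat1, against 2.61 to 4.06 FPKM in the other conjugate libraries, 23.2 FPKM of Npc1 and 36.8 FPKM of Abcg1, which lay at 13.5 to 17.5 FPKM in the other conjugate libraries. That library also had the highest macrophage score of the table, 7.78, the other 14 lying at 4.40 to 5.81, and its part in these values was not tested.

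Glp1rWnt1-/- fat had no called member, nor any called gene (0% lower). 6 members and 593 of all 12686 genes had an unadjusted p under 0.05. The members' median was -0.17, that of all genes 0.04, and 18 of 19 enzymes were negative. Hsd17b7 was the one member below vehicle without overlap, at -0.49 ± 0.11 SE, adjusted p = 0.983, against 0.623% of genes. 5 members were called lower here with array weights, as were 3.39% of all genes.

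Between conjugate and knockout fat 0 members were called, where 0.134% of genes were, with 12 members at an unadjusted p under 0.05. Mvd came closest, at -0.61 ± 0.11 SE, adjusted p = 0.0549, and 17 of 19 enzymes were negative. Without the 3 B cell-rich libraries 10 members were called lower, as were 0.976% of all genes, among them Nsdhl (-0.92, adjusted p = 0.0265) and Insig1 (-1.04, adjusted p = 0.0285). 1 was called with a pseudocount of 0.1 or without conjugate replicate 5, 2 without conjugate replicate 2, and 14 (13 lower) with array weights, where 4.12% of all genes were lower.

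The 10 calls of conjugate against vehicle fell to 5 with median-of-ratios scaling, depth as a covariate or only the 2 groups, to 6 with no filter, and to 5 without any one of conjugate replicates 1, 3 and 4 and vehicle replicates 3, 4 and 5. With array weights 23 were called, 20 of them lower, and so were 11.9% of all genes, with 31.9% higher.

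**Figure D4:**
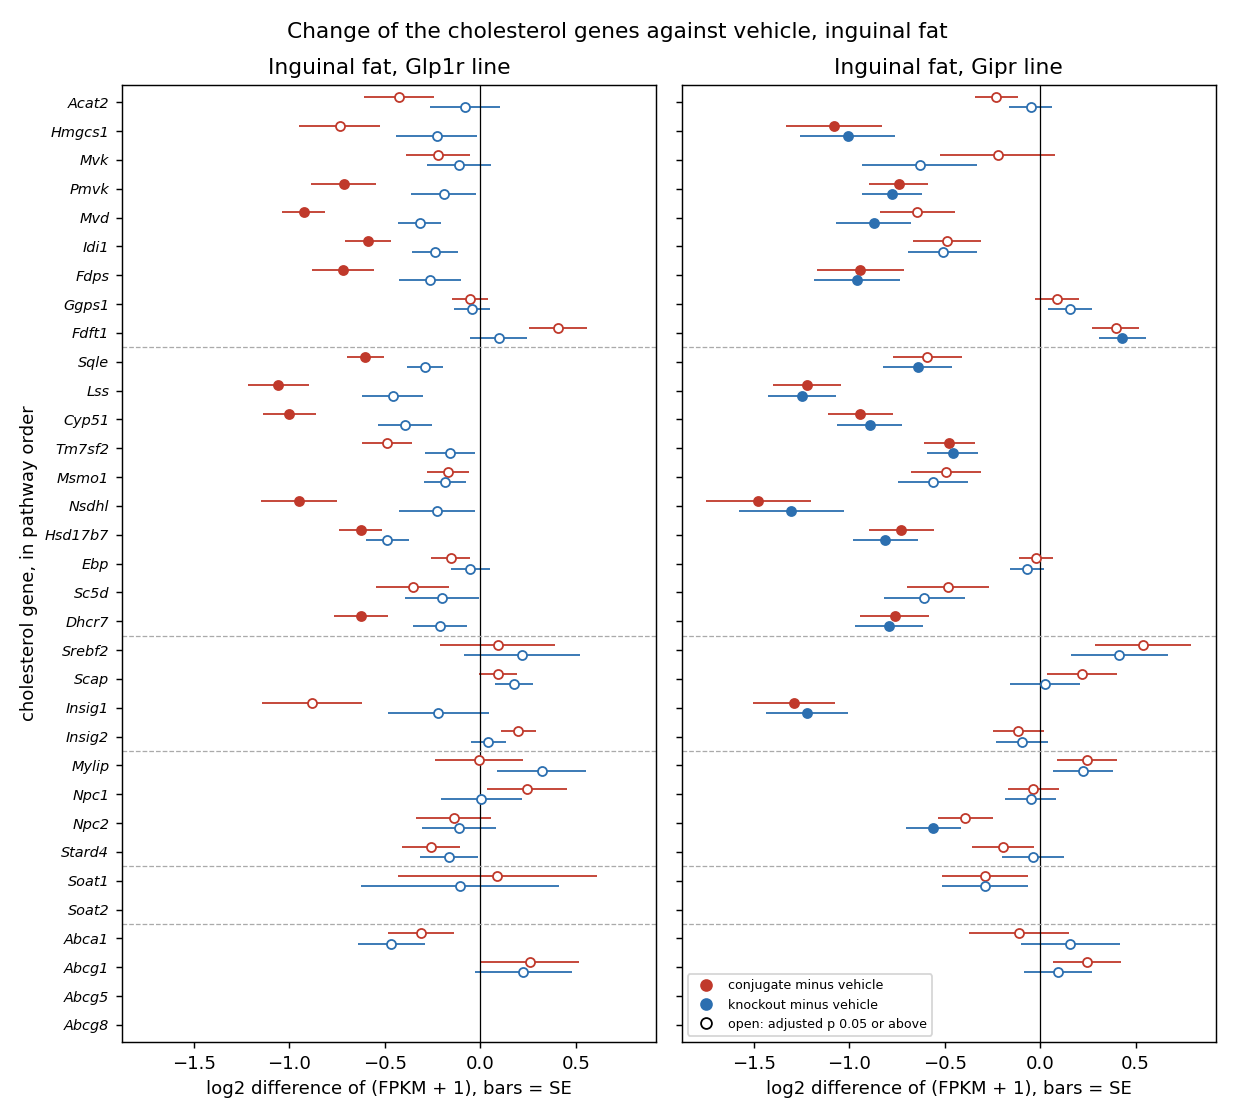
Log2 difference of FPKM + 1 against vehicle (x axis, bars are SE) for the members in pathway order (y axis) in inguinal fat, conjugate and knockout of each line, filled where the adjusted p is under 0.05. Soat2, Abcg5 and Abcg8 were not tested. Fdft1 lies right of 0 in all 4 comparisons, between enzymes that lie left of it.

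In Gipr line fat, synthesis enzymes were lower in both the conjugate and the knockout group. 10 members were lower and 0 higher in conjugate fat against vehicle fat, where 2.76% of genes were lower: Hmgcs1, Pmvk and Fdps before squalene, Lss, Cyp51, Tm7sf2, Nsdhl, Hsd17b7 and Dhcr7 after it, and Insig1. In GiprSyn-/- fat 13 were lower, where 5.67% of genes were: 11 enzymes, Insig1 and Npc2. 1 member was higher in knockout fat, Fdft1, as were 6.61% of genes. The members' median log2 difference was -0.43 for the conjugate and -0.54 for the knockout, and that of all genes 0.11 and 0.09. Groups did not overlap downward for 13 members in the conjugate comparison, against 4.06% of genes, and for 10 in the knockout comparison, against 4.73%. Both comparisons share the vehicle libraries, so their likeness is not independent.

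Nsdhl had 10.3, 22.2, 19.5, 14.1 and 8.26 FPKM in conjugate fat, 15.5, 12.1, 21.7, 25.7 and 9.47 FPKM in knockout fat and 37.3, 49, 32.9, 47.8 and 38.4 FPKM in vehicle fat. Every conjugate and knockout library lay below every vehicle library, at -1.47 ± 0.28 SE, adjusted p = 0.00734, for the conjugate and -1.30 ± 0.28 SE, adjusted p = 0.00987, for the knockout. Lss had 4.65, 9.36, 5.82, 4.88 and 3.67 FPKM in conjugate fat, 4.8, 5.12, 6.48, 6.24 and 4.2 FPKM in knockout fat and 15.3, 16, 12.6, 12.9 and 13.3 FPKM in vehicle fat. Neither group reached the vehicle range, with -1.22 ± 0.18 SE, adjusted p = 0.00172, and -1.25 ± 0.18 SE, adjusted p = 0.00149.

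Hmgcs1 in this fat had 49.5, 91.6, 94.9, 68.4 and 68.8 FPKM in conjugate fat, 80.5, 69.99, 95.1, 123 and 39.6 FPKM in knockout fat and 162, 202, 138, 143 and 138 FPKM in vehicle fat, and here too vehicle stood above both groups (-1.08 ± 0.25 SE, adjusted p = 0.0207, for the conjugate and -1.01 ± 0.25 SE, adjusted p = 0.0204, for the knockout). For Fdps the libraries had 18.3, 37.4, 28.8, 29 and 17.8 FPKM in conjugate fat, 24.4, 18.2, 32.5, 37.3 and 17.5 FPKM in knockout fat and 49.6, 57, 41.2, 53.3 and 47.2 FPKM in vehicle fat. The pattern repeats, vehicle being highest in every library, at -0.94 ± 0.23 SE, adjusted p = 0.024, and -0.96 ± 0.23 SE, adjusted p = 0.0159. Other enzymes that fell in both groups were Cyp51 (-0.94 in conjugate and -0.89 in knockout fat), Dhcr7 (-0.76 and -0.79), Hsd17b7 (-0.73 and -0.81), Pmvk (-0.74 and -0.78) and Tm7sf2 (-0.47 and -0.46). Mvd and Sqle were called in knockout fat, at -0.87 and -0.64, and stood at -0.64 ± 0.20 SE, adjusted p = 0.0615, and -0.59 ± 0.18 SE, adjusted p = 0.0615, in conjugate fat.

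Insig1 was the called regulator and had 44, 80.4, 68, 55.9 and 52.4 FPKM in conjugate fat, 61.2, 51.7, 70.2, 103 and 39 FPKM in knockout fat and 140.4, 165, 133, 155 and 135 FPKM in vehicle fat. Vehicle lay above all 10 other libraries, and the log2 differences were -1.29 ± 0.21 SE, adjusted p = 0.0039, for the conjugate and -1.22 ± 0.21 SE, adjusted p = 0.00404, for the knockout. Insig2 was level, at 23.1 ± 3.54, 23.7 ± 5.02 and 25 ± 2.01 FPKM in conjugate, knockout and vehicle fat, where in the livers of both lines it was the called one. Whether the tissues differ in this was not tested. Srebf2 averaged 14.1 ± 4.21, 13.6 ± 6.88 and 9.19 ± 1.23 FPKM and was not called; its highest values, 21.2 FPKM in conjugate replicate 1 and 25.2 FPKM in knockout replicate 5, were in libraries with B cell scores of 6.14 and 6.4, while knockout replicate 1, with a score of 6.38, had 12.2 FPKM.

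Npc2 had 110.5, 165, 154, 146 and 199 FPKM in conjugate fat, 122, 124, 165, 150.4 and 121 FPKM in knockout fat and 208, 179, 177, 229 and 211 FPKM in vehicle fat. Knockout fat lay wholly below vehicle (-0.56 ± 0.14 SE, adjusted p = 0.0235), while in conjugate fat replicate 5 lay within the vehicle range (-0.39 ± 0.14 SE, adjusted p = 0.115). Markers of macrophages, which are rich in lysosomal proteins, were lower in knockout fat for 4 of 7 genes, with a mean log2 score of 5.2 to 6.16 in conjugate, 4.93 to 5.35 in knockout and 5.54 to 6.31 in vehicle fat, and their part in the Npc2 result was not tested. Soat1, Abca1, Abcg1, Mylip, Npc1 and Stard4 were not called in either comparison, with log2 differences from -0.29 (Soat1) to 0.25 (Abcg1) in conjugate fat.

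Between conjugate and knockout fat of this line 0 members were called, as were 0.00735% of genes, and 0 of 30 members had an unadjusted p under 0.05. The median log2 difference of the members was 0.02, and single intervals stay wide: for Nsdhl the 95% interval was -0.76 to 0.42 and for Hmgcs1 -0.61 to 0.46.

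B cell scores were 1.92 to 6.14 in conjugate, 3.58 to 6.4 in knockout and 1.05 to 4.69 in vehicle fat, and Schwann cell scores 2.59 to 3.64, 2.94 to 3.48 and 2.01 to 2.6, with 7 of 7 Schwann markers higher in conjugate fat, and 6 of 7 Schwann, 4 of 5 B cell and 2 of 3 tested Kupffer cell markers higher in knockout fat. Of the Kupffer cell list, Clec4f was at most 0.0113 FPKM in this fat. Vsig4 averaged 1.4 FPKM in knockout and 3.28 FPKM in vehicle fat, so the list does not mark Kupffer cells here. Without the 3 libraries of a B cell score above 5, 7 members were called in knockout fat (6 lower, as were 2.8% of all genes, with Lss at -1.11, adjusted p = 0.013, Insig1 at -0.999, adjusted p = 0.0166 and Nsdhl at -1.06, adjusted p = 0.0538), and in conjugate fat 8 were lower, as were 2.8% of all genes, and Fdft1 higher. Conjugate calls were 5 without vehicle replicate 1, 6 without conjugate replicate 1 or vehicle replicate 2 and 18 with array weights (16 lower, as were 7.56% of all genes), and knockout calls 9 without vehicle replicate 1. The higher number series holds conjugate replicate 5 and knockout replicate 5 of this fat, and no vehicle library. Their estimated depths were 56.7 and 64.4 (in units of 1e6 fragments), beside 30.6 to 39.2 in vehicle fat. They were the lowest of their groups for 10 and 7 of 19 enzymes.

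**Figure D5:**
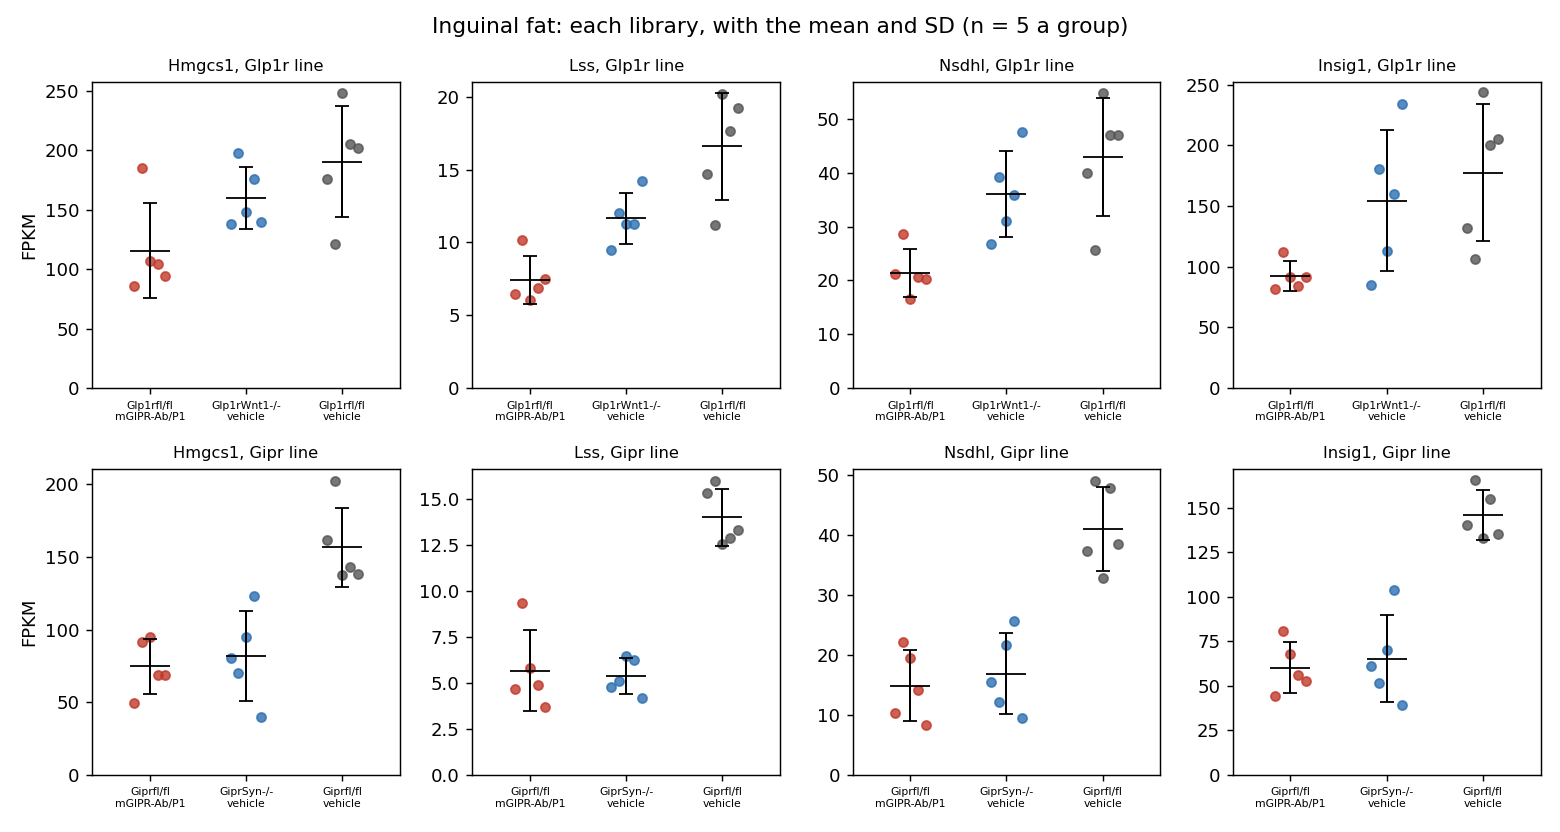
FPKM (y axis, from 0) of Hmgcs1, Lss, Nsdhl and Insig1 in each fat library of the Glp1r line (top) and Gipr line (bottom), conjugate left of knockout and vehicle, with the mean and SD (n = 5 a group). In the Gipr line all 10 conjugate and knockout libraries lie below all 5 vehicle libraries for each of the 4 genes.

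The interaction test of the conjugate effect in fat between the lines called no member and no other gene (0% of 14156 genes; 554 genes and 0 members at an unadjusted p under 0.05). 7 enzymes were called lower in conjugate fat of both lines: Pmvk, Fdps, Lss, Cyp51, Nsdhl, Hsd17b7 and Dhcr7, 70.0% of the 10 called in each line. The overlap of all genes called lower was not computed, so this share is not shown to be particular to the members. The lines have separate mice and share no libraries.

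Step by step, the enzymes did not all move. Over the 8 comparisons with vehicle, Hmgcs1, Fdps, Hsd17b7 and Dhcr7 were lower in 5, and Pmvk, Mvd, Lss, Cyp51 and Nsdhl in 4. Among the enzymes Ggps1, which leads off the route to geranylgeranyl diphosphate, and Ebp, the sterol isomerase, were called in none. Ggps1 differences ran from -0.05 to 0.20 and Ebp differences from -0.15 to 0.02, with Ebp at 104 ± 5.97, 96 ± 6.79 and 102 ± 6.35 FPKM in conjugate, knockout and vehicle livers of the Glp1r line. Scap, the SREBP escort, was likewise called in none, as were all 6 esterification and efflux genes. Of these 6, only Abca1 was tested in all 8 comparisons, Soat1 and Abcg1 in 6, and Soat2, Abcg5 and Abcg8 in 4. 12 of the 33 members had no call against vehicle. In both Glp1rWnt1-/- comparisons no gene was called at all, and the comparisons of a tissue and line share their vehicle libraries. In how many comparisons each of all genes was called was not computed. These tallies are therefore not shown to be particular to the members.

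Fdft1, squalene synthase, stood apart between the tissues. In liver it had 23.5 ± 5.15 FPKM in GiprSyn-/- livers and 38.4 ± 11.8 FPKM in vehicle livers (-0.67 ± 0.19 SE, adjusted p = 0.0331). In fat it was on the higher side in all 4 comparisons: 0.41 and 0.10 for conjugate and knockout in the Glp1r line, and 0.40 and 0.43 in the Gipr line, where the knockout call had an adjusted p of 0.0362. Knockout fat of the Gipr line held 13, 17.1, 19.1, 21.7 and 15.5 FPKM and vehicle fat 12.6, 12.5, 13.4, 12 and 11.4 FPKM, so that 1 knockout library lay within the vehicle range and 4 above it. A difference between the tissues was not tested.

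A second list held 28 other genes around the pathway, chosen by function. Acss2 and Acly, which supply acetyl-CoA in the cytosol, were both lower in conjugate livers of the Glp1r line, in conjugate fat of both lines and in GiprSyn-/- fat, and Acss2 also in GiprSyn-/- livers. In Glp1r line livers Acss2 averaged 30.5 ± 11.7 FPKM in conjugate livers and 62.9 ± 11.1 FPKM in vehicle livers (log2 difference -1.07 ± 0.22, adjusted p = 0.0102). Gipr line fat had 19.3 ± 5.52 FPKM in conjugate fat and 58.1 ± 11.5 FPKM in vehicle fat (log2 difference -1.56 ± 0.22, adjusted p = 0.00123). Tmem97, a sterol-responsive membrane protein, fell in 5 of the 8 comparisons with vehicle, a tally that was not computed for all genes. In the Gipr line it averaged 36 ± 4.29 FPKM in knockout livers and 58.3 ± 6.11 FPKM in vehicle livers (log2 difference -0.68 ± 0.10, adjusted p = 0.00052). In conjugate livers of the Glp1r line 4 of 24 tested were lower and 2 higher, beside 4.69% and 5.68% of all genes. In GiprSyn-/- livers 5 of 24 were lower, beside 8.92% of all genes. Conjugate fat of the Glp1r line had 3 of 25 lower and 1 higher, beside 1.08% and 2.31%. In Gipr line fat 4 of 24 were lower and 1 higher for the conjugate, beside 2.76% and 4.26%, and 6 lower and 1 higher for the knockout, beside 5.67% and 6.61%; the single higher calls are near the share of all genes. In conjugate livers of the Gipr line and in both Glp1rWnt1-/- tissues 0 were called.

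Cyp27a1, the sterol 27-hydroxylase, was higher in conjugate fat of the Glp1r line, at 22.3 ± 4.29 FPKM in conjugate fat and 13 ± 2.62 FPKM in vehicle fat (log2 difference 0.74 ± 0.14, adjusted p = 0.0187), and in that of the Gipr line, at 29.4 ± 3.85 FPKM in conjugate fat and 17.7 ± 1.28 FPKM in vehicle fat (log2 difference 0.70 ± 0.09, adjusted p = 0.000978). In Glp1r line livers Lcat, which esterifies cholesterol on HDL, averaged 230.1 ± 11.8 FPKM in conjugate livers and 191 ± 10.1 FPKM in vehicle livers (log2 difference 0.27 ± 0.08, adjusted p = 0.0373). Vldlr, a lipoprotein receptor, fell in GiprSyn-/- livers, averaging 0.507 ± 0.161 FPKM in knockout livers and 2.03 ± 0.14 FPKM in vehicle livers (log2 difference -1.02 ± 0.09, adjusted p = 1.97e-05). Its mean in these knockout livers was under the 1 FPKM of the filter, which a gene can pass through its other groups. At such low levels the added 1 FPKM of the log scale damps a change. In fat of that line Vldlr averaged 21.2 ± 6.78 FPKM in knockout fat and 43.8 ± 0.917 FPKM in vehicle fat (log2 difference -1.07 ± 0.24, adjusted p = 0.0131). Lipa, the lysosomal esterase that frees cholesterol, was lower in both GiprSyn-/- tissues, with 52.2 ± 9.21 FPKM in knockout livers and 100.1 ± 22.5 FPKM in vehicle livers (log2 difference -0.91 ± 0.16, adjusted p = 0.0022) and 40.9 ± 7.59 FPKM in knockout fat and 75.3 ± 19.9 FPKM in vehicle fat (log2 difference -0.85 ± 0.19, adjusted p = 0.0133).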

How the data were processed

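Poly(A) RNA of liver and inguinal white fat was sequenced as stranded libraries, 5 a group in 12 groups. FPKM values per gene symbol were made by the authors with RSEM, per the submitters' processing notes. For RSEM's version, and for the read aligner, build and gene models behind it, nothing was given in the sources used here. Each of 4 tables (1 tissue, 1 mouse line, 15 libraries) was analysed by itself. Genes reaching 1 FPKM in at least 5 libraries were fitted as log2(FPKM + 1) in limma 3.58.1 (R 4.3.3) over all 3 groups, with a mean-variance trend, and p-values were Benjamini-Hochberg adjusted over all genes tested, with calls under 0.05. Fold changes on this scale understate those of low genes. The conjugate effect was compared between lines as an interaction over 30 libraries. The script was tested on simulated data, where over the 8 comparisons with vehicle it recovered 77 to 96% of the 2-fold and 45 to 86% of the 1.5-fold changes, with 3.05 to 6.51% of its calls on unchanged genes. The changed genes had a mean log2 level above that of 5 FPKM, and noise was drawn independently for each gene and library. Changes of lower genes and shifts that many genes of a library share were not simulated. These rates therefore need not hold for the measured libraries. Depth was estimated from the step of low FPKM values, so no counting interval is given.

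The members and lists were chosen with earlier results of these data known. Genes named with all their values were the called members with the largest changes of each comparison, and otherwise those with the smallest p. Alternatives were the pseudocount, the filter, the scaling, array weights, depth, marker scores, a replicate block, the groups in the fit and leaving out single libraries. Same-numbered conjugate and knockout libraries of Gipr line fat deviated together (correlations of 0.331 to 0.707 over 5 pairs), which is a property of these data and not of the labels. With the block, conjugate against knockout in that fat had 0 calls, the count also reported without it. The counts against vehicle under the block are given below. Some genes of the pathway are not reported here. Promoters came from RefSeq, GRCm38.p6.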

Additional observations from a re-analysis of the deposited data

Results flagged for a closer look

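Of 75 groups of 5 libraries examined over the named members on the log2(FPKM + 1) scale, 1 had a library set apart by Dixon's ratio: Mvd in fat of the Glp1r line, where knockout replicate 5 had 9.93 FPKM and the other 4 knockout libraries 7.58 to 8.0 FPKM. The gap took up 0.804 of the group's range on that scale and 0.823 in FPKM, above the critical value of 0.71. In FPKM 3 groups exceeded it, the others being Mvd in vehicle livers of the Glp1r line, where replicate 2 gave 0.72, and Insig2 in conjugate livers of that line, where replicate 2 gave 0.716. Chance flags about 1 in 20 groups.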

How the results depend on the processing

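Over the alternatives for single members, 8961 kept their side of the threshold, 277 lost a call and 142 gained one. The 8961 include members with no call to lose. Among them are 986 and 897 from the liver and fat comparisons between the lines. Another 587 and 593 come from Glp1rWnt1-/- livers and fat, where no member was called as reported. The 8961 are therefore no measure of how stable the calls are. Direction was checked only where the member was called in the reported or the alternative fit, and there 0 reversed. Counts of called members moved as follows. Without a filter on low values they were 9 (conjugate against vehicle, Glp1r line liver, 15 as reported), 0 and 0 (conjugate against knockout in Glp1r and Gipr line liver, 3 and 2 as reported), 6 (knockout against vehicle, Gipr line liver, 10 as reported) and 6 (conjugate against vehicle, Glp1r line fat, 10 as reported). Median-of-ratios scaling gave 1 and 0 for conjugate against knockout in Glp1r and Gipr line liver and 5 for conjugate against vehicle in Glp1r line fat. Under that scaling 2.53% of all genes were higher and 3.87% lower in GiprSyn-/- livers, with 7 members lower and a median log2 difference of all genes of 0.01, where -0.11 was reported, and 3.62% and 7.75% of all genes lower in conjugate and knockout fat of the Gipr line, with 12 and 15 members lower. Depth as a covariate gave 0 and 0 in Glp1r line liver (conjugate against vehicle and against knockout), 1 for conjugate against knockout in Gipr line liver and 5 for conjugate against vehicle in Glp1r line fat. Fitting only the groups compared gave 0 and 1 for conjugate against knockout in Glp1r and Gipr line liver and 5 in Glp1r line fat. Array weights gave 5, 17 and 12 in Gipr line liver (conjugate and knockout against vehicle, and conjugate against knockout), 23, 5 and 14 in Glp1r line fat, and 18 for conjugate against vehicle in Gipr line fat, where 10 were reported. The pancreas score gave 6 for the GiprSyn-/- livers, and leaving out the higher library number series 1 for conjugate against knockout there. A pseudocount of 0.1 gave 1 for conjugate against knockout in Glp1r line fat. Without libraries of a B cell score above 5 the counts were 17 and 10 in Glp1r line fat (conjugate against vehicle and against knockout) and 7 in GiprSyn-/- fat.

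The replicate block gave 5 for conjugate against vehicle in Glp1r line fat and 0 for conjugate against knockout in Gipr line liver. Outside conjugate and knockout fat of the Gipr line, 1 to 3 of 5 same-numbered pairs had a correlation over 0.1. The median was 0.258 for conjugate and vehicle livers of the Gipr line, beside -0.088 for pairs of other numbers there. Other counts under the block were 18, 0 and 3 in Glp1r line liver, 2 and 10 in Gipr line liver against vehicle, and 12, 16 and 0 in Gipr line fat.

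Leaving out 1 library gave 9 to 17, 0 to 0 and 0 to 5 called members in Glp1r line liver (conjugate against vehicle, knockout against vehicle, conjugate against knockout), 2 to 4, 5 to 13 and 0 to 6 in Gipr line liver, 5 to 14, 0 to 0 and 0 to 2 in Glp1r line fat, and 5 to 11, 9 to 15 and 0 to 0 in Gipr line fat. With 5 libraries a group, and depth known only as an estimate, counts of calls near the threshold are not precise. Counts in this section without a share of all genes beside them cannot tell a change of the members from a general change in calls.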

Other observations

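Within a group, many synthesis enzymes put the same library first or last. In Glp1r line livers conjugate replicate 2 was the highest of its group for 12 of 19 enzymes and conjugate replicate 1 the lowest for 13. In Gipr line livers knockout replicate 5 was the highest of its group for 16 enzymes and vehicle replicate 2 for 15. In Gipr line fat conjugate replicate 2 was highest for 13, knockout replicate 4 highest for 12 and vehicle replicate 3 lowest for 12.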
